A study of Mus musculus with 14 samples.

Results

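Tubulin genes were examined in maturing mouse liver. The 10 genes were the α-tubulins Tuba1a, Tuba1b, Tuba1c, Tuba4a and Tuba8 and the β-tubulins Tubb2a, Tubb2b, Tubb4b, Tubb5 and Tubb6. They were found through the RefSeq accession of each probe, and they are 10 of the 19751 genes that could be named on the array. All 10 had at least 1 probe. Tuba1b and Tubb2b had 2 probes each, so that the 10 genes gave 12 measurements on each array, and the probe of a gene with the higher mean intensity over all arrays stood for it.

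Liver RNA came from CD-1 mice, an outbred strain, of both sexes, killed when 3, 4 or 8 wk old. The 6 groups are called M3, M4, M8, F3, F4 and F8 after sex and age. The labels name no treatment, transgene or diet for any of them. Each group had 2 pools of liver RNA, of 5 mice each at 3 wk and of 6 mice each at 4 and 8 wk, and the 2 arrays of a comparison carried separate pools with the dyes exchanged. There were 7 comparisons on 14 two-colour arrays: M3/F3, M4/F4 and M8/F8 compared the sexes at 1 age, while 8 wk liver was set against younger liver of the same sex in M8/M3 and M8/M4 for males and in F8/F3 and F8/F4 for females. A pool is a mean over its mice, so the spread between individual mice is not seen. Arrays of 1 replicate number were taken to carry the same pool of a group, so that comparisons with a group in common are not independent of each other. In whole liver, fewer cells of a type and less RNA per cell cannot be told apart.

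Microtubules are hollow polymers of α- and β-tubulin dimers. Mammals carry several genes for each subunit, whose proteins are nearly identical in the core and differ mainly in the acidic tail. In hepatocytes microtubules carry secretory vesicles and organelles to the cell surface, and in dividing cells they form the mitotic spindle. Liver still grows at 3 and 4 wk, whereas hepatocytes of the young adult seldom divide.

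The share of bright spots varied between the arrays, and the 2 arrays of M4/F4 held its lowest and its highest value. In 1 channel of 1 array, 55.2% to 77.2% of the spots that were not controls (median 66.5%) stood well above background, the scanner software's flag for a spot brighter than its surroundings, and no spot was saturated. Xist, transcribed from the inactive X chromosome, had log2 ratios of -5.10 to -6.67 in the 6 male over female arrays. The Y-linked genes Ddx3y and Eif2s3y had 5.80 to 7.24 and 6.87 to 8.02 on the same arrays, in the direction of the labels on every one. All 9 hepatocyte markers, among them Alb and Ttr, were well above background in all 28 channels.

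The brightest probe of 9 of the 10 genes was well above background in all 28 channels. That of Tubb2b was above it in 24 of 28. Tuba8 was dim as well, with mean normalized log2 intensities of 7.76 to 8.44 over the groups, where the other 8 genes had 10.75 or more.

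Promoter sequences were shown to set out the starts of the genes whose ratios are described below. They are RefSeq sequences of build GRCm38.p6, of the 250 bases before the start of each gene, written 5′ to 3′ on the strand of the gene. Capitals mark the CCAAT box, as CCAAT or, on the other strand, ATTGG, and the TATA box, TATAAA. The first pair below belongs to the β-tubulins of dividing and many other cells, and the second pair to Tubb2a, the called β-tubulin with the largest falls, and to Tuba4a, an α-tubulin that was not called at any age.
Tubb4b (chr2:25224703-25224952, minus strand): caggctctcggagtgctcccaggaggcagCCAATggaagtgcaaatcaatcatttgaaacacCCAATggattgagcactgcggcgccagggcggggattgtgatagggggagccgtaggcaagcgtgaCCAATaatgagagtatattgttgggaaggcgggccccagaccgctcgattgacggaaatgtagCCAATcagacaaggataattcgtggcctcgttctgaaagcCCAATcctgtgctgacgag
Tubb5 (chr17:35838302-35838551, minus strand): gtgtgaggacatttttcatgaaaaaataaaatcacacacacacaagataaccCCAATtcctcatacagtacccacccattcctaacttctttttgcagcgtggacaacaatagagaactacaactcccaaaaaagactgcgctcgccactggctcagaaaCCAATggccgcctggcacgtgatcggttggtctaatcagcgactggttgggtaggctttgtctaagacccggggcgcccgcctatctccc
Tubb2a (chr13:34078009-34078258, minus strand): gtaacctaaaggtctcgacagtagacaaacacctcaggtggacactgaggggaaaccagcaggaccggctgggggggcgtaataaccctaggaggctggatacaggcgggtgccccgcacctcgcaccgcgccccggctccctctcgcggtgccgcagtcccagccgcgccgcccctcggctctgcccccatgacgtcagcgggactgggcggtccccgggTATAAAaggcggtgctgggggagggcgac
Tuba4a (chr1:75219295-75219544, minus strand): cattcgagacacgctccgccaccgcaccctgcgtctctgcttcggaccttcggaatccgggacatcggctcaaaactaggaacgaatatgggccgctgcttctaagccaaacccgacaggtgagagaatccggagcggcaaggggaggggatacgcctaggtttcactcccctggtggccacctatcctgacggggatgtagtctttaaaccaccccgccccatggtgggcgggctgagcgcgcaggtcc

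Of the 10 genes 8 had a promoter sequence; Tubb2b and Tubb6 had none. The CCAAT box was found on either strand in 4 of the 8, with 5 matches in Tubb4b, 2 in Tubb5 and 1 each in Tuba1a and Tuba1c, against 33.8% of 32851 promoters of the same length. The GC box GGGCGG was found on either strand in 5 of the 8 and in 32.7% of all promoters. TATAAA was found in Tubb2a alone, 29 to 24 bases before the start, and in 12.4% of all promoters. The CHR element TTTGAA was found in Tubb4b alone and in 16.0% of all promoters, and the E2F motifs TTTCGCGC, TTTGGCGC and TTTCCCGC in none of the 8 and in 1.53% of all. These matches describe letters and not binding. Tuba1b, Tuba1a and Tuba1c lie beside each other on chromosome 15, and Tubb2a and Tubb2b on chromosome 13.

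From 3 to 8 wk most of the tubulins fell in both sexes. Tuba1a, Tuba1b, Tuba1c, Tubb2a, Tubb4b and Tubb5 were called lower in M8/M3, and the same 6 genes were called lower in F8/F3. Tubb2b was the only 1 of the 10 called higher, in all 4 age comparisons, by a probe that its second probe contradicts. A call needed a limma adjusted p under 0.05, a change of more than 1.5-fold (a ratio over 1.5 or under 0.667), and a signal well above background on both arrays in 1 or both of the groups. Among the genes tested, 10.0% were called lower in M8/M3 and 6.64% in F8/F3, beside 6 of the 10 tubulins in each. Each of these counts of 6 fell to 3 or 4 when either array of its comparison was left out, and to 3 at an unadjusted p under 0.0001. Called higher were 7.81% and 5.08% of the genes tested, beside 1 tubulin in each. Against 4 wk liver fewer were called: 1 tubulin was lower in M8/M4, where 6.38% of genes were, and 4 were lower in F8/F4, where 3.72% were; the latter count was 2 or 3 without either of its arrays. In these comparisons 4.44% and 2.28% of genes were higher, again beside 1 tubulin each.

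The median log2 ratio of the 10 tubulins in males was -0.71 against 3 wk and -0.42 against 4 wk. In females it was -0.77 and -0.63, where the median of all genes tested lay between 0.01 and 0.02. On all 8 arrays of the age comparisons 8 of the 10 tubulins had a ratio below 0, and 1, Tubb2b, had a ratio above 0 on all 8. Tuba8 had ratios on either side of 0.

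**Figure D1:**
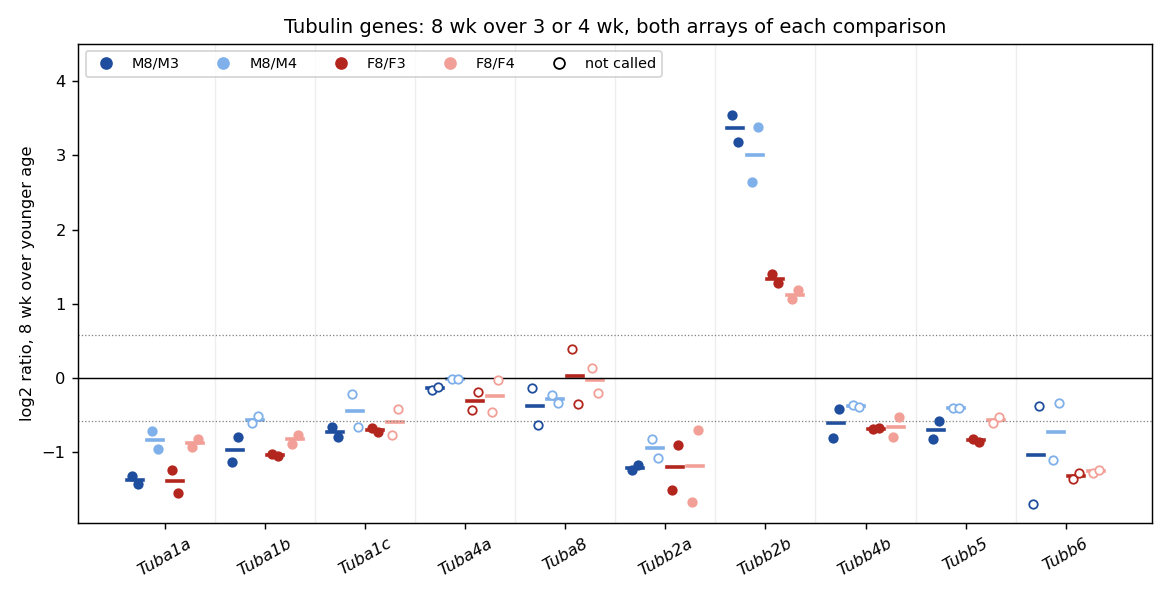
The log2 ratio of 8 wk over younger liver is plotted for each of the 10 tubulin genes by its brightest probe. Each point is 1 array, bars are the means of the 2 arrays, filled points belong to called comparisons, and dotted lines mark a ratio of 1.5 either way. Of the 10 genes 8 lie below 0 on every array, Tubb2b lies above 0 on every array, and the points of Tubb6 in M8/M3 are -1.69 and -0.37.

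Tuba1a, an α-tubulin best known from developing neurons, fell on every array. Its log2 ratios were -1.32 and -1.43 on the arrays of M8/M3 and -1.23 and -1.54 on those of F8/F3. Against 4 wk liver they were -0.71 and -0.95 in males and -0.93 and -0.82 in females. All 8 arrays were thus below the lower threshold. The level fell 2.59-fold in males from 3 to 8 wk, with a log2 ratio of -1.37 ± 0.08 (SD of 2 arrays, adjusted p = 0.00025 by limma), and 2.62-fold in females, with -1.39 ± 0.22 (adjusted p = 0.00024). From 4 wk the mean log2 ratios were -0.83 (adjusted p = 0.0014) in males and -0.88 (adjusted p = 0.0011) in females.

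Tuba1b encodes a broadly expressed α-tubulin. Its brighter probe gave -1.14 and -0.79 in M8/M3. The female arrays gave -1.03 and -1.05 against 3 wk and -0.88 and -0.77 against 4 wk. These 3 comparisons were called, with means of -0.96 ± 0.24 (adjusted p = 0.00069), -1.04 ± 0.02 (adjusted p = 0.00053) and -0.82 ± 0.08 (adjusted p = 0.0012 by limma). In M8/M4 the arrays gave -0.61 and -0.51, and the mean fall of 1.47-fold missed the fold threshold although its adjusted p was 0.0052. After normexp and loess, another background correction and normalization, this fall was called (-0.60, adjusted p = 0.0014). The second probe of Tuba1b had means of -0.82 in M8/M3 and -0.64 in F8/F3, both called. In F8/F4 its 2 arrays gave -0.68 and -0.23, a mean of -0.46 that was not called.

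Tuba1c, another widely expressed α-tubulin, fell less. Its arrays gave -0.66 and -0.79 in M8/M3 and -0.67 and -0.72 in F8/F3, and both means were called, -0.73 ± 0.09 (adjusted p = 0.042) and -0.69 ± 0.04 (adjusted p = 0.049 by limma). Without either array of M8/M3, or either array of F8/F3, the call was lost, at adjusted p of 0.17 to 0.27. It was also lost in both with the slide as a block (adjusted p = 0.082 and 0.092) and without a dye term (adjusted p = 0.057 and 0.066), and in F8/F3 with the replicate block, a term for the replicate number (adjusted p = 0.054). From 4 wk the log2 ratios were -0.21 and -0.66 in males and -0.77 and -0.42 in females, and neither comparison was called (adjusted p = 0.18 and 0.082).

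Tuba4a, an α-tubulin whose gene does not encode a C-terminal tyrosine, was near level. In males its arrays gave -0.16 and -0.12 against 3 wk and -0.01 on both arrays against 4 wk. In females they gave -0.43 and -0.19 against 3 wk and -0.45 and -0.03 against 4 wk. The 4 means lay between -0.31 and -0.01 with a standard error of 0.10, and the lowest adjusted p was 0.085, in F8/F3. Tuba8, a divergent α-tubulin of testis and muscle, gave -0.13 and -0.63 in M8/M3 and 0.39 and -0.35 in F8/F3. Against 4 wk it gave -0.23 and -0.34 in males and 0.14 and -0.20 in females. None of its age comparisons was called, and the 2 arrays of F8/F3 differed in direction, as did those of F8/F4.

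Among the β-tubulins Tubb2a, a class II isotype abundant in brain, had the largest falls that were called. In M8/M3 the arrays gave -1.24 and -1.18, a 2.31-fold fall of -1.21 ± 0.04 on the log2 scale (adjusted p = 0.032 by limma). In F8/F3 they gave -1.51 and -0.90, and in F8/F4 -1.67 and -0.70. The means were -1.20 ± 0.43 (adjusted p = 0.032) and -1.18 ± 0.69 (adjusted p = 0.034), so that the female arrays of replicate 1 fell further than those of replicate 2. With the slide as a block all 3 calls were lost (adjusted p = 0.070, 0.071 and 0.074). In M8/M4 the values of -0.82 and -1.07 were not called (adjusted p = 0.073), but they were with shared pools in the covariance (adjusted p = 0.036) and after normexp and loess (adjusted p = 0.028). Leaving out either array ended the call in M8/M3 (adjusted p = 0.15 and 0.19) and in F8/F3 (adjusted p = 0.095 and 0.24). In F8/F4 the mean without replicate 1 was -0.72 (adjusted p = 0.31).

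Tubb4b and Tubb5 are the β-tubulins of most cell types, and Tubb5 is the main one of many dividing cells. Tubb4b gave -0.81 and -0.41 in M8/M3. In females it gave -0.69 and -0.67 against 3 wk and -0.80 and -0.53 against 4 wk. These were called, with means of -0.61 ± 0.28 (adjusted p = 0.015), -0.68 ± 0.01 (adjusted p = 0.0097) and -0.66 ± 0.19 (adjusted p = 0.011 by limma). In M8/M4, at -0.36 and -0.39, it was not called (adjusted p = 0.083). Single arrays decided some of these calls: without M8/M3 replicate 1 the mean was -0.48 (adjusted p = 0.15), without F8/F3 replicate 2 it was -0.59 (adjusted p = 0.10), and without either array of F8/F4 it was -0.61 or -0.72 (adjusted p = 0.10 and 0.061).

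Tubb5 gave -0.82 and -0.57 in M8/M3 and -0.82 and -0.86 in F8/F3. The falls were 1.62-fold in males, -0.70 ± 0.18 (adjusted p = 0.0018), and 1.79-fold in females, -0.84 ± 0.03 (adjusted p = 0.00091 by limma). From 4 wk it gave -0.41 on both male arrays and -0.60 and -0.52 on the female arrays. Both means had an adjusted p below 0.05, 0.014 and 0.0040, but with falls of 1.33-fold and 1.48-fold they missed the fold threshold.

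Tubb6, the class V β-tubulin, had ratios below 0 on all 8 arrays, and whether it was called depended on the model. In females its arrays lay close together, at -1.35 and -1.28 in F8/F3 and at -1.28 and -1.23 in F8/F4, and the means of -1.32 and -1.26 had adjusted p of 0.058 and 0.068 and were not called. Both were called with shared pools in the covariance (adjusted p = 0.036 and 0.043), with the slide as a block (adjusted p = 0.037 and 0.041), with the replicate block (adjusted p = 0.036 and 0.042) and after normexp and loess (adjusted p = 0.027 and 0.033 by limma). In males they lay apart, at -1.69 and -0.37 in M8/M3 and at -1.10 and -0.34 in M8/M4, and were not called (adjusted p = 0.12 and 0.28). With averages weighted by the modelled error of each array, at an unadjusted p under 0.0001, both male falls were called, at -0.89 and -0.68. Both female falls were called there as well. The 2 male pools at 8 wk had normalized log2 intensities of 11.47 and 12.70, where the other pools of the gene differed by less. Since limma takes 1 spread for a gene over all comparisons, the male pools also set the error of the female ratios.

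Tubb2b, a class II β-tubulin that marks developing neurons, went the other way by its brighter probe. In male liver its log2 ratios were 3.54 and 3.18 against 3 wk and 2.64 and 3.38 against 4 wk. Female liver gave 1.40 and 1.28 against 3 wk and 1.06 and 1.19 against 4 wk. All 8 arrays were above the upper threshold. The male arrays all exceeded the female ones, but after normexp and loess M8/M3 replicate 2, at 0.64, lay below both arrays of F8/F3, at 0.69 and 0.65. The mean rises were 10.3-fold in M8/M3 (log2 3.36 ± 0.26, adjusted p = 0.00015) and 8.04-fold in M8/M4 (3.01 ± 0.52, adjusted p = 0.00020 by limma). In females they were 2.53-fold (1.34 ± 0.08, adjusted p = 0.0032) and 2.18-fold (1.12 ± 0.09, adjusted p = 0.0063). Without either array of F8/F4 that call was lost (adjusted p = 0.054 and 0.053).

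The intensities behind these ratios were low. The processed intensity of the probe was 22.8 and 22.3 in M3 on the M8/M3 arrays, where M8 had 266 and 203. In F8/F3 it was 38.1 and 39.2 in F3 and 100.3 and 95.1 in F8. In M4 and F4 the probe was well above background in 3 of 4 and 2 of 4 channels, in M3 in 3 of 4, and in F3 in all 4. It was above background in all 6 channels of M8 and all 6 of F8. After normexp with an offset of 50 and loess, the mean log2 ratios of the males were 1.36 from 3 wk and 2.12 from 4 wk, both still called, and those of the females were 0.67 and 0.58, which were not (adjusted p = 0.14 and 0.20).

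The second probe of Tubb2b did not show a rise. Male liver gave -1.09 and -0.57 against 3 wk and -0.84 and -0.39 against 4 wk. Female liver gave -0.57 and -0.41, and -0.49 and 0.02. None of these was called, and the lowest adjusted p of the 4 was 0.17. Its intensity was also low, 21.5 and 23.7 in M8 and 46.0 and 35.2 in M3 on the arrays of M8/M3. The 2 probes thus disagree in direction on 7 of 8 age arrays, and the level of Tubb2b is uncertain. The choice between them was not independent of the rise. In M3, F3 and F4 the second probe was the brighter one, at normalized log2 intensities of 7.30, 7.22 and 7.00 against 7.25, 7.17 and 6.95, whereas in M8 the first had 9.06 and the second 6.87. Over the 3 and 4 wk groups their means were 7.14 and 7.10. The calls of Tubb2b with age and between the sexes therefore rest on a probe chosen in part by its level in M8. With the mean of both probes the log2 ratios of the males were 1.27 and 1.20, both called, and those of the females 0.43 and 0.45, not called (adjusted p = 0.18 and 0.16). The tubulin genes are close paralogs. The sequences of the probes were not analysed here, so that cross-hybridization between isotypes was not tested.

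**Figure D2:**
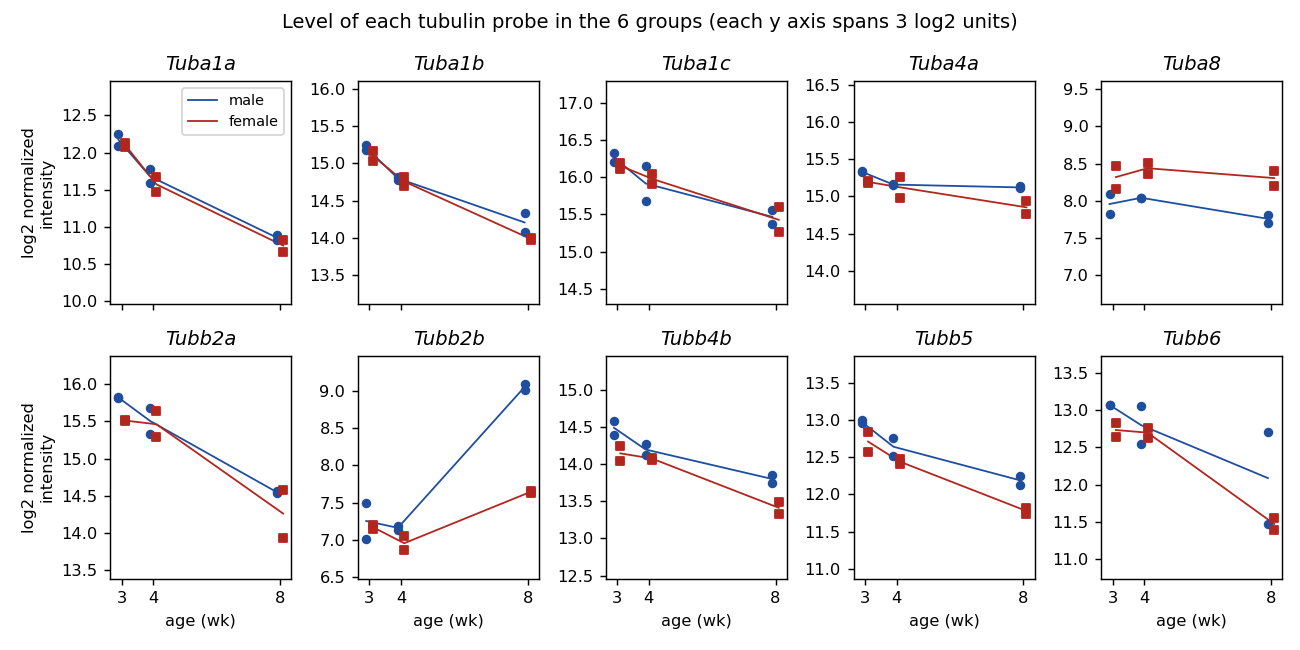
The normalized log2 intensity of each tubulin probe is plotted against age, for males in blue circles and for females in red squares. Each point is the mean of 1 RNA pool over the arrays that carried it, lines join the means of the 2 pools, and each axis spans the same range. The group means of Tuba1a are lower at each later age in both sexes, though its change from 3 to 4 wk was not called. Those of Tubb2b are between 6.95 and 7.25 at 3 and 4 wk and reach 9.06 in M8.

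The levels of a probe can be followed over the 6 groups. Tuba1a had mean normalized log2 intensities of 12.17 in M3, 11.68 in M4 and 10.86 in M8, and of 12.11, 11.57 and 10.75 in the female groups, so that the groups fell into 3 pairs by age. Within each pair the sexes differed by 0.11 or less, under the larger SD of the 2 pools of a group. Tuba1b had the same order, 15.21, 14.80 and 14.21 in males and 15.10, 14.76 and 13.98 in females. For Tubb5 the order was M3 at 12.98, F3 at 12.71, M4 at 12.64, F4 at 12.44, M8 at 12.19 and F8 at 11.78, and the pools of F3 and M4 overlapped. Tuba4a lay between 14.85 in F8 and 15.33 in M3.

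Between 3 and 4 wk no tubulin was called. The change was read as M8/M3 minus M8/M4 and as F8/F3 minus F8/F4, since these ages were not hybridized with each other. The arrays of M8/M3 lay on other slides, scanned on another day, than those of M8/M4, and the male difference cannot be told apart from this. Those of F8/F3 and F8/F4 shared slides and scan day. The background was low as well, with 0.294% of genes called in males and 0.0941% in females. For 9 of the 10 tubulins, all but Tubb2b, the male differences lay between -0.54 and -0.09 and the female differences between -0.51 and 0.05 on the log2 scale, where a value below 0 means a lower level at 4 wk than at 3 wk. The lowest were those of Tuba1a, -0.54 ± 0.12 (SE, adjusted p = 0.12) in males and -0.51 ± 0.12 (adjusted p = 0.20 by limma) in females, falls of 1.45-fold and 1.42-fold that did not pass.

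In male over female liver few tubulins differed. At 3 wk none was called, where 0.517% of genes were, and at 4 wk none was, where 1.58% of genes were. At 8 wk, where 6.40% of genes were called, 1 tubulin was called in each direction, Tuba8 lower and Tubb2b higher in males. Tuba8 gave -0.91 and -0.58 in M8/F8, a 1.67-fold lower level in males (-0.74 ± 0.24, adjusted p = 0.0065 by limma). At 3 wk it had been at -0.38 and -0.36 and at 4 wk at -0.39 and -0.15, below 0 on all 6 arrays but not called (adjusted p = 0.080 and 0.18). Without either array of M8/F8 the call was lost (adjusted p = 0.053 and 0.051), and after normexp the 8 wk mean of -0.52 missed the fold threshold (adjusted p = 0.0025).

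Tubb2b by its brighter probe gave 2.16 and 2.08 in M8/F8, a 4.34-fold higher level in males (2.12 ± 0.06, adjusted p = 0.00060 by limma). After normexp and loess the log2 ratio was 1.51 (adjusted p = 0.0041), and the mean of both probes, 0.63, was not called (adjusted p = 0.059). At 3 wk the same probe was at -0.31 on both arrays (adjusted p = 0.33). At 4 wk it gave 0.72 and 0.30, where F4 was well above background on neither array and M4 on 1, and it was not tested there. The second probe gave -1.45 and -0.28 in M8/F8 (mean -0.86, adjusted p = 0.15), with M8 well above background on neither array. After normexp and loess the arrays of this probe gave -0.39 and -0.04, a 1.16-fold lower level in males whose size is uncertain. Beside these, Tubb5 gave 0.35 and 0.30 in M8/F8, a 1.25-fold higher level in males that missed the fold threshold (adjusted p = 0.032), and Tuba1b gave 0.25 and 0.30 (adjusted p = 0.071). At 8 wk 8 of the 10 genes were above 0 on both arrays, whereas at 4 wk 6 of the 10 had arrays on either side of 0.

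**Figure D3:**
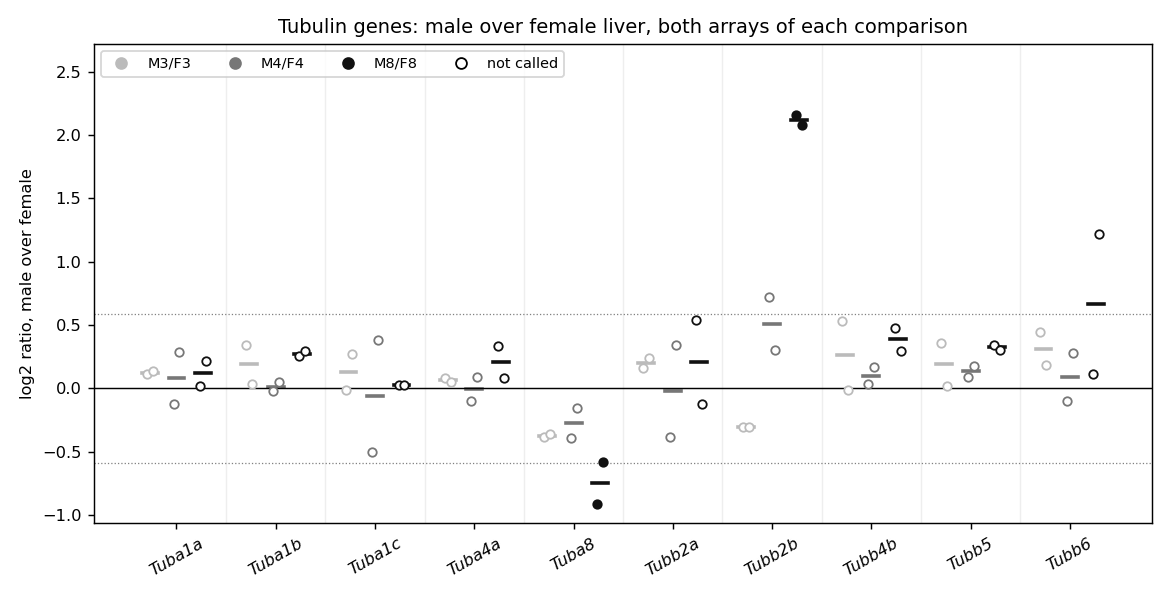
The log2 ratio of male over female liver is plotted for the 10 tubulin genes at 3, 4 and 8 wk. Each point is 1 array, bars are means of the 2 arrays, filled points are called, and dotted lines mark a ratio of 1.5 either way. Most points lie between the dotted lines, and at 8 wk Tubb2b lies at 2.16 and 2.08 and Tuba8 at -0.91 and -0.58.

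Whether age changed a tubulin differently in the sexes was tested by subtracting F8/F3 from M8/M3 and F8/F4 from M8/M4. Of the 10 tubulins 1 was called in each, Tubb2b, where 3.35% and 1.31% of genes were. Its difference was 2.03 on the log2 scale from 3 wk (SE 0.24, adjusted p = 0.0086) and 1.88 from 4 wk (SE 0.24, adjusted p = 0.021 by limma). The second call was lost with shared pools in the covariance (adjusted p = 0.085) and with the slide as a block (adjusted p = 0.051). After normexp and loess neither difference was called, at 0.70 from 3 wk (adjusted p = 0.47) and 1.54 from 4 wk (adjusted p = 0.087), nor with the mean of both probes, at 0.84 and 0.75 (adjusted p = 0.13 and 0.25). The arrays of M8/M3 lay on other slides, scanned on another day, than those of F8/F3. Read through the sex arrays, which were all scanned with M8/M3, the difference from 3 wk was 2.46 and 2.39 for the 2 replicates, against 2.15 and 1.90 read directly. The value of 2.39 rests on an array on which M3 was not well above background, and its size is uncertain. M8/M4 and F8/F4 were scanned together, and gave 1.58 and 2.19. Without F8/F3 replicate 2 the first was 1.88 (adjusted p = 0.053), and without M8/M4 replicate 2 the second was 1.53 (adjusted p = 0.051); without either array of F8/F4 it was not called either (adjusted p = 0.084 and 0.091). By the second probe the differences were -0.34 and -0.38 (adjusted p = 0.83 and 0.86).

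For the other 9 tubulins the differences between the sexes in the change from 3 wk lay between -0.40 and 0.28, with a lowest adjusted p of 0.25. From 4 wk they lay between -0.25 and 0.54, with a lowest adjusted p of 0.38. For Tuba1a the first difference was 0.01 ± 0.12 (SE), for Tuba1b 0.07 ± 0.11 and for Tubb5 0.14 ± 0.11. A p that misses the threshold does not show that the sexes changed alike.

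The remaining tubulin genes were described for comparison. Tubb1, the β-tubulin of platelets and megakaryocytes, was called lower in males against both younger ages, at -1.16 (adjusted p = 0.013) and -0.91 (adjusted p = 0.031 by limma). In females it was called against 3 wk, at -1.19 (adjusted p = 0.011), and not against 4 wk, at -0.77 (adjusted p = 0.056). Its probe was dim, well above background in 17 of 28 channels, and in each age comparison the 8 wk group was above it on 1 of the 2 arrays, so that the size of these falls is uncertain. Tubb4a, a β-tubulin of brain, was at -0.68 in M8/M3 (adjusted p = 0.00087) and -0.84 in F8/F3 (adjusted p = 0.00041), beside -0.70 and -0.84 for Tubb5. Tubd1, the δ-tubulin of centrioles, was at -0.59 and -0.60 (adjusted p = 0.0046 and 0.0044). The γ-tubulins Tubg1 and Tubg2, which start new microtubules, lay between -0.30 and -0.06 in the 4 age comparisons, and the ε-tubulin Tube1 between -0.03 and 0.06, and none of the 3 was called. Tubb3, the neuronal class III isotype, was well above background in 7 of 28 channels, Tuba3a in 9, Tuba3b in 10 and Tubal3 in none, so that these 4 were tested in part of the comparisons or in none and not called. Of the 10 genes of this kind, 6 could be tested in M8/M3 and 3 were lower.

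Genes that act on tubulin were taken from lists of named proteins. The γ-tubulin ring complex, which nucleates microtubules, had 11 of 11 genes tested and none called in the 4 age comparisons, with medians of 0.05 to 0.11 on the log2 scale. Of 21 genes for the folding of tubulin and the assembly of its dimer, which include the CCT chaperonin, prefoldin and the tubulin cofactors, 1 was called, Tbcel, higher in F8/F3 at 0.62. The medians of this list lay between -0.16 and -0.01. The difference between these lists and the tubulins was not tested.

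Among proteins that take microtubules apart 4 were called lower in each of the age comparisons, of 10 or 11 tested. Kif2c, a kinesin that depolymerizes spindle microtubules, was at -3.62 in M8/M3 and -3.16 in F8/F3. Stmn1, stathmin, which binds free tubulin dimers, was at -2.09 and -1.84. Fignl1 was at -3.99 and -3.08, and Kif18a, a kinesin of the mitotic spindle, at -2.04 and -1.50. In the same list Kif2a, Katna1 and Spast were tested and not called. Of the stabilising and plus-end proteins Map1b, which binds axonal microtubules, was called lower in M8/M3 at -1.52 (adjusted p = 0.031) and the plus-end protein Mapre3 higher at 0.63, of 16 tested. The tubulin modifying enzymes had 2 called higher in M8/M3, Atat1, the acetyltransferase of α-tubulin, at 0.71 and Agbl5, a deglutamylase, at 0.59, and 1 lower, Ttll9. For Ttll9 M8 was well above background on neither array. It was 1.19-fold lower after normexp and loess, and the size of its fall is uncertain. No enzyme of this list was called in the other 3 age comparisons.

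Of 19 genes for motors of interphase cells, Dynll1, a light chain of dynein, was lower in all 4 age comparisons, between -1.08 and -0.77, and Kif1b, a kinesin of organelle transport, was higher in M8/M3 at 0.89 and F8/F3 at 0.76. The heavy chain Dync1h1 and the kinesin Kif5b were not called. The mitotic genes moved furthest. All 25 of 25 genes of the spindle and cell division, among them Mki67, Top2a and Cdk1, were called lower in each of the 4 age comparisons. Their medians were -3.26 against 3 wk and -2.79 against 4 wk in males, and -2.61 and -2.50 in females. The 8 wk groups of Aurkb were not well above background. With these set to at least the lowest normalized signal well above background, the medians were -3.19, -2.75, -2.61 and -2.49. The median of the 10 tubulins lay in the direction of the mitotic genes but nearer to 0, at -0.71, -0.42, -0.77 and -0.63. Single tubulins differed, with Tubb2b called higher by its brighter probe and Tuba4a, Tuba8 and Tubb6 not called. The difference between the tubulins and the mitotic list was not tested.

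**Figure D4:**
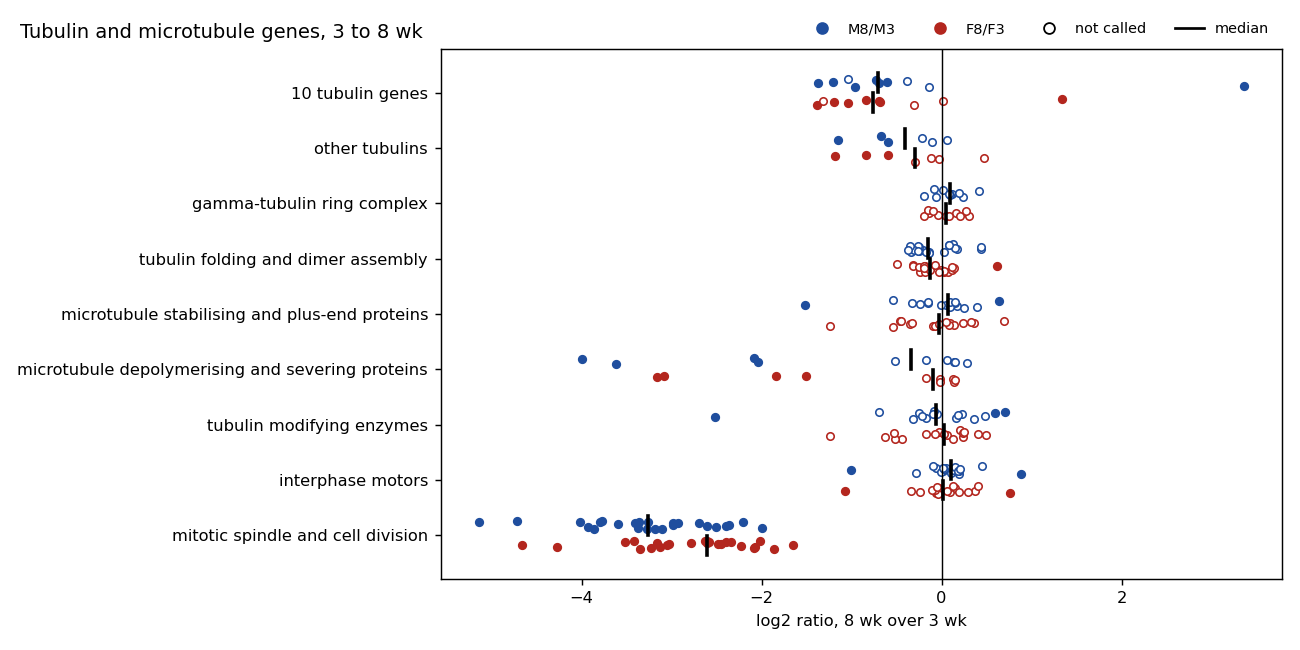
The log2 ratio of 8 wk over 3 wk liver is plotted for the tubulin genes and for the lists of genes that act on microtubules, in blue for M8/M3 and in red for F8/F3. Each point is 1 gene that was bright enough to be tested, filled where called, and black bars are list medians. The mitotic genes as plotted all lie below -1.5, the γ-tubulin ring complex lies about 0, and the 10 tubulin genes have medians of -0.71 and -0.77. The position of Aurkb is uncertain, since its 8 wk groups were not well above background.

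Ratios of the tubulins were correlated over the 14 arrays as a description. The arrays share pools, and any gene that changes with age will correlate over them. Tuba1b and Tubb5 had a Pearson r of 0.994 and were the nearest of 15259 genes to each other. Tubb4b was nearest to Tuba1b (r = 0.975) and then to Tubb5 (r = 0.974). The other nearest genes of Tubb5 were Jpt1 (0.991) and Lrr1 (0.990), and those of Tuba1b were Lrr1 (0.991) and Jpt1 (0.983). Tuba1a was nearest to Tnfrsf11b, Mre11a and Pask, at 0.989 to 0.993. Tubb2a was nearest to Nubp2 (0.983), Tubb2a-ps2 (0.980), named as a pseudogene of it, and Hcfc1 (0.974). Tuba1c was nearest to Cstf2, Ppp1r14b and Wls, at 0.948 to 0.963, and Tubb2b to Rhox2e, Tpsb2 and Zfp112, at 0.984 to 0.988. With the median of the 25 mitotic genes on each array, r was 0.94 for Tuba1a, 0.92 for Tuba1b and for Tubb5, 0.89 for Tubb4b, 0.88 for Tubb2a, 0.82 for Tuba1c, 0.79 for Tubb6, 0.60 for Tuba4a, -0.37 for Tuba8 and -0.69 for Tubb2b.

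Markers of other cells in liver moved with age as well. In M8/M3 and F8/F3 5 of the 9 stellate and mesenchymal markers were lower, among them Col1a1 at -2.25 and -1.93, and so were 3 of 5 platelet markers, with Pf4 at -1.63 and -1.48. The summed intensity of the mesenchymal list on the log2 scale was 17.48 to 17.69 in M3 and 16.38 to 16.61 in M8, and that of the platelet list 12.20 to 12.47 and 10.88 to 10.91. In females the mesenchymal list was at 17.46 to 17.56 in F3 and 16.67 to 16.68 in F8, and the platelet list at 12.15 to 12.32 and 10.79 to 10.95. Of 6 erythroid markers 3 were lower in both comparisons and Alas2 was higher in M8/M3, and Epb42 was well above background in none of the 8 wk channels. The summed erythroid intensity was 15.37 to 15.54 in M3 and 15.78 to 15.98 in M8, and 15.45 to 15.54 in F3 and 15.27 to 15.55 in F8. The 9 hepatocyte markers had 1 gene lower and 1 higher in M8/M3 and none called in F8/F3, with summed intensities of 20.52 to 20.83 in M3, 20.57 to 20.70 in M8, 20.69 to 20.72 in F3 and 20.43 to 21.03 in F8. Of the other lists, bile duct markers had 2 of 6 lower in M8/M3 and 1 of 6 in F8/F3, endothelial markers 1 of 7 in each, Kupffer and macrophage markers 2 of 6 and 1 of 6, and lymphocyte markers 2 of 7 and 0 of 7. Of the nerve markers Uchl1, Nefl and Nefm were well above background in none of the 28 channels. The part of these cells in the tubulin ratios was not tested.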

How the data were processed

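Liver RNA pools of CD-1 mice were hybridized to 14 two-colour Agilent arrays with 43020 non-control spots of 39429 probes each. The authors used Agilent's Feature Extraction software, with linear and LOWESS dye normalization. The deposited scanner output gives, for each spot, background-subtracted and processed intensities and a log10 ratio of red over green with its modelled error. The log10 ratios deposited for the whole series differed from these by 0. Columns of per-sample values from other series numbered 0.

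The log10 ratios were converted to log2, turned to male over female or older over younger by the dyes in the labels, and averaged over spots of a probe. Between 0 and 10 non-uniform spots an array were left out. Names were taken from RefSeq (GRCm38.p6) through accessions, for 26055 probes; 13374 had none. Its promoter sequences were searched on both strands. The study's methods state the dyes of replicate 1 the other way round, and the labels were kept.

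The ratios entered a linear model in limma 3.58.1 (R 4.3.3, version 1.17.8 of data.table), with 1 coefficient for each of the 7 comparisons and a dye term. Benjamini-Hochberg adjustment covered all probes and comparisons together, and all probes within each difference of comparisons. The threshold was an adjusted p of 0.05 with a ratio over 1.5 or under 0.667. Levels were obtained by normexp (offset 50), loess and Aquantile from the deposited pixel-median intensity. For the mitotic medians the dim groups of Aurkb were also set to at least the lowest signal well above background. A dim signal already over that was left unchanged. Whether replicate numbers tie arrays through shared pools was checked: over probes, the deviations of same-numbered arrays from their comparison's mean correlated above 0 for all 6 pairs of comparisons with a group on the same side of the ratio (r = 0.15 to 0.68) and below 0 for all 4 with a group on opposite sides (r = -0.53 to -0.43). For the 11 pairs with no group in common r was -0.29 to 0.22, which overlaps the lowest same-side value. The model was tested on simulated data. With 2 arrays per comparison, their number limits the precision. The p-values measure the spread between replicate arrays, in which pools and hybridizations are mixed. The main fit has no term for pools and takes arrays that share a pool as independent.

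Members and gene lists were chosen with earlier results of these data known. Named were all 10 tubulins and every other tubulin. Of the lists of proteins that act on tubulin and of motors, up to 3 called genes were named, those with the largest absolute mean ratio over the age comparisons. Of the mitotic list and the cell type markers not all such genes were named. Other genes named were chosen after their values were seen. Alternatives were another background correction, no dye term, replicate, slide or shared-pool terms, the study's p threshold of 0.0001, error-weighted averages, fold and brightness filters, all probes of a gene, and each array left out.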

Additional observations from a re-analysis of the deposited data

Results flagged for a closer look

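By 1 of the 2 probes of Tubb2b, the change with age differed between the sexes by a test of the difference itself. That probe stood for the gene through its mean intensity, to which its level in M8 contributed. Its log2 ratio of M8/M3 minus F8/F3 was 2.03 (SE 0.24, adjusted p = 0.0086 by limma), with ratios above 0 on all 8 age arrays, and without F8/F3 replicate 2 the call was lost (1.88, adjusted p = 0.053). For M8/M4 minus F8/F4 it was 1.88 (SE 0.24, adjusted p = 0.021), and this call was lost with shared pools in the covariance (adjusted p = 0.085) and with the slide as a block (adjusted p = 0.051). The second probe of the gene gave -0.34 and -0.38 (adjusted p = 0.83 and 0.86), and the mean of both probes 0.84 and 0.75 (adjusted p = 0.13 and 0.25). After normexp and loess the first probe gave 0.70 and 1.54 (adjusted p = 0.47 and 0.087).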

How the results depend on the processing

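Directions of the tubulin counts were kept under every alternative in which a count remained, and the replicate block, the fit without a dye term and both brightness filters left every count within 1.5 times. With the replicate block beside the dye term, 6 tubulins were called lower in M8/M3, 6 in F8/F3 and 5 in F8/F4, where Tubb6 was gained in both female comparisons and Tuba1c lost in F8/F3; the block changed no other call of a tubulin. The number called lower in M8/M4 was 1, and 2 with shared pools in the covariance, 3 after normexp and loess, 3 with error-weighted averages at an unadjusted p under 0.0001, 3 without a threshold on the ratio, and 2 among probes bright enough in at least 1 comparison, an alternative chosen after seeing the data. At an unadjusted limma p under 0.0001, 3 were lower in M8/M3, 3 in F8/F3 and 2 in F8/F4, 0 in M8/F8, and 0 were higher in F8/F3 and in F8/F4. After normexp and loess 0 were higher in F8/F3 and F8/F4, 0 were lower in M8/F8, and the difference between the sexes was called for 0 tubulins from 3 wk and 0 from 4 wk. With the mean of all probes of a gene 0 were higher in M8/F8, F8/F3 and F8/F4, and both differences between the sexes were called for 0. The difference from 4 wk was also called for 0 with the slide as a block, with shared pools and at the unadjusted p. Without a threshold on the ratio 2 were higher in M8/F8. With each array left out in turn, the number lower was 3 to 4 in M8/M3, 3 to 4 in F8/F3 and 2 to 3 in F8/F4, 0 to 0 in M8/F8, the number higher in F8/F4 was 0 to 0, and the differences between the sexes were called for 0 to 1. The fits without an array have fewer arrays; for the other changes the cause was not tested. Signal over background limits Tubb2b, which was above it in 24 of 28 channels, Tubb1 (17 of 28), Tubg2 (25 of 28), and Tuba3a, Tuba3b, Tubal3 and Tubb3.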
